A study of Homo sapiens with 12 samples.

Results

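The regions described here are splice junctions that start at a known 5' splice site (donor) and end at a 3' splice site (acceptor) missing from the authors' gene annotation. They were chosen by the class in the authors' deposited table of introns, with no use of the measured change, and number 2633 of the 15980 introns listed (16.5%). They lie in 1576 of the 2994 listed clusters, a cluster being a set of introns that share splice sites, and are assigned to 1372 host gene symbols. The RNA came from cortical neurons made by NGN2 expression from WA01, a wild-type human embryonic stem cell line. Controls received a scrambled short hairpin RNA and the other cells a hairpin against TDP-43, both for 7 days, with 3 RNA-seq and 3 3' end-seq libraries per treatment. All libraries come from the same cell line, and the labels do not tie the 3 replicates to separate cultures, in which case the deposited p-values reflect only the spread between these libraries.

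Splicing removes an intron by joining its 5' end, which nearly always starts with GT, to its 3' end, which nearly always stops with AG after a stretch of pyrimidines. TDP-43 is an RNA-binding protein that prefers UG-rich RNA and keeps many intronic sequences from being recognised as exons. In frontotemporal dementia (FTD) and in amyotrophic lateral sclerosis (ALS) it leaves the nucleus of affected neurons, and the intronic pieces that then enter messenger RNA are called cryptic exons. An unannotated acceptor can be the entry to such an exon, an extension or a trimming of a known exon, or a jump to a place beyond the gene.

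The measured value is the change in an intron's share of the reads in its cluster, in percentage points, so changes within a cluster sum to 0 apart from rounding. The table gives 1 change per intron and 1 adjusted p per cluster, with no value per library, so no spread between replicates can be shown and the change of a single junction was not tested on its own. Every listed cluster passed the authors' adjusted p of 0.05. The depth behind each value is unknown. The table does not name the subtracted group. A positive change is read here as a higher share in the knockdown, because the junction into the known cryptic exon of STMN2 is positive. The level of TARDBP, which encodes TDP-43, and of neuronal markers was not analysed here.

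The class label was compared with the coordinates and, where possible, with sequence. In 2610 of the 2633 junctions (99.1%) an annotated junction of the same cluster left from the same donor. Of the unannotated acceptors, 1 was also used by an annotated junction of the table, in a STMN2 cluster called on the strand opposite to the gene. RefSeq sequence (GRCh38.p14) was at hand only for windows at gene starts, which by position hold 21 of the acceptors and 74 of the donors. All 21 acceptors followed the letters AG, and all 74 donors preceded GT. AG makes up 7.17% of the 2-letter steps in those windows over both strands. All 38 annotated acceptors in the windows followed AG too, as did those of every other class, so the letters do not set this group apart. Alignment of spliced reads can itself favour these letters, so the match is no independent support for the sites. Of the 21 sites, 19 had 30 bases in a window. In these, 9 to 16 of the 18 bases before AG were pyrimidines, with a median of 13, the same median as in 36 annotated acceptors of the table (range 7 to 18). A match of letters describes the sequence and does not show by itself that a site is used.

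The following acceptors show what such a site looks like. They were picked from the 19 after their values were seen, and all 19 changed by at most 3.0 points in size. Each run holds the last 20 intron bases and the first 10 bases after them, 5' to 3', with the AG in capitals. FTO and the 2 neighbouring sites of UPF3A gained share, and NT5C3B and GRB10 lost share.
FTO, chr16:54039325-54039354, plus strand: cctatacttctctgtttcAGagtggatata
UPF3A, chr13:114291581-114291610, plus strand: cttctgccattctcatccAGgcagtttata
UPF3A, chr13:114291585-114291614, plus strand: tgccattctcatccaggcAGtttatacaca
NT5C3B, chr17:41835673-41835702, minus strand: tcctaaaacccaaatttcAGatttctcaat
GRB10, chr7:50732359-50732388, minus strand: acagtctgtctttattccAGgtgctgcagc
In the authors' deposited table the FTO junction gained 3.0 points (adjusted p of its cluster 0.0222). The UPF3A pair, with acceptors 4 nt apart, changed by 2.8 and 0.7 points in that table. UPF3A acts in nonsense-mediated decay, the pathway that removes transcripts with early stop codons. The NT5C3B junction fell by 2.0 points and the GRB10 junction by 1.7 points in the authors' deposited table.

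Most of these junctions changed little. The authors' deposited table gave a positive change for 1347 (51.2%), a negative one for 1124 (42.7%) and 0.0 for 162, against 47.9% positive and 47.6% negative over all listed introns. The median change was 0.1 points, and 1216 (46.2%) were under 1 point in size, against 37.8% of all listed introns. A gain of at least 10 points was seen in 136 junctions (5.17%), and the background over all 15980 introns was 5.39%. A loss of at least 10 points was seen in 71 junctions (2.70%), and the background was 5.32%. The share of large gains thus lay near the background, and that of large losses was lower. The background of losses includes annotated junctions, of which 9.18% lost at least 10 points. Fewer did so in the other unannotated classes with a known strand. It was 1.59% with an unannotated 5' splice site, 1.48% of unannotated pairs of known sites and 0.952% with both sites unannotated. Among larger changes, 45 gained and 9 lost at least 20 points, 21 gained and 1 lost at least 30, and 7 gained and 0 lost at least 50 points. As shares, gains of at least 20, 30 and 50 points were 1.71%, 0.798% and 0.266% here against 1.35%, 0.469% and 0.138% of all introns. Losses of at least 20 points were 0.342% here against 1.48% of all introns, where 0.494% lost at least 30 and 0.163% at least 50.

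**Figure D1:**
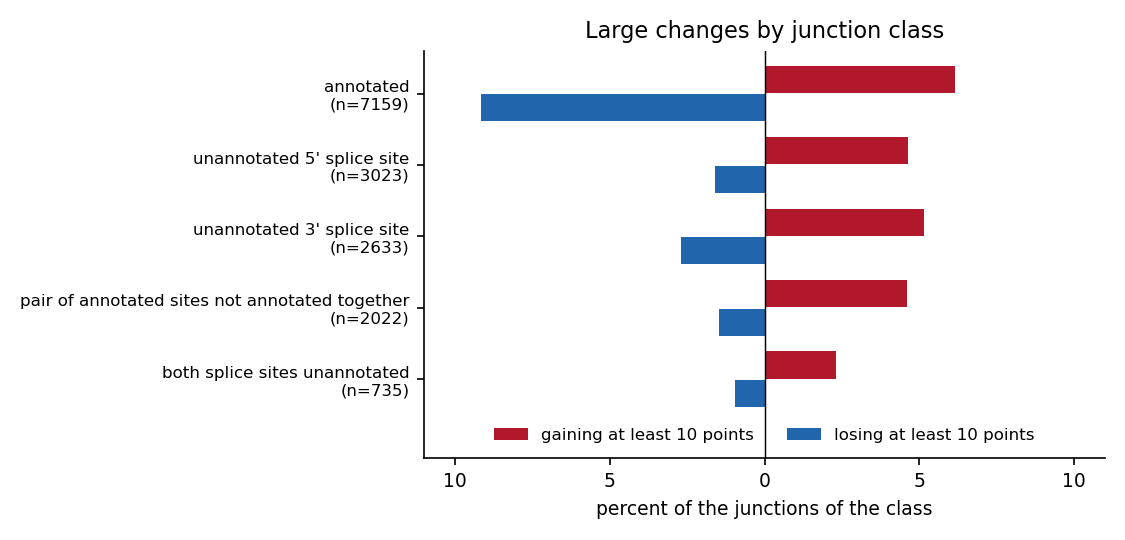
Percent of junctions in each class that gained (right, red) or lost (left, blue) at least 10 percentage points of their cluster in the authors' deposited table, with the number of junctions per class; 408 junctions of unknown strand are left out. Junctions with an unannotated 3' splice site gained in 5.17% and lost in 2.70%, and annotated junctions gained in 6.16% and lost in 9.18%.

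Set beside the other classes, the group had the highest share of gains of at least 30 points among junctions with a known strand. It was 0.798% here (21 junctions) and 0.562% of 3023 junctions with an unannotated 5' splice site (17 junctions). The 21 count a STMN2 junction listed on both strands each time. Other shares were 0.445% of 2022 unannotated pairs of known sites, 0.265% of 7159 annotated junctions and 0 of 735 with both sites unannotated. The order depends on the limit, as at 10 points annotated junctions had the higher share, 6.16% against 5.17%. No test of these differences was made, because junctions of different classes share clusters and their changes sum to 0. Summed within a cluster, the junctions described here gained in 872 of 1576 clusters (55.3%) and lost in 640, with a median of 0.3 points. The sum was at least 10 points in 135 clusters (8.57%) and -10 points or less in 64 (4.06%). Such sums were not made for other classes, so the lean is not shown to be particular to this group. Single changes were positive in 51.4% with an unannotated 5' splice site, 57.0% of unannotated pairs and 52.5% with both sites unannotated. Among annotated junctions 42.2% were positive.

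The 4 largest gains were at acceptors inside an annotated intron of the host gene. PFKP, a phosphofructokinase of glycolysis, had the largest change of the group. Its junction from 3099352 to 3099557 on chromosome 10 gained 79.7 points in the authors' deposited table, and the annotated junction from the same donor changed by -79.7 points (cluster adjusted p = 0.00215). The acceptor lies 1808 nt upstream of the annotated one. INSR, the insulin receptor gene, gained 75.6 points from 7169831 to 7170537 on the minus strand of chromosome 19 in that table, with its acceptor 1737 nt upstream of the annotated one (adjusted p = 2.12e-05). ARHGAP32, which encodes a GTPase-activating protein for small GTPases, gained 67.6 points at an acceptor 3921 nt upstream in the authors' deposited table (adjusted p = 0.00055). ADCY1, a calcium-stimulated adenylyl cyclase of the brain, gained 56.9 points at an acceptor 23371 nt upstream, against -88.3 points for its annotated junction in the same table. In these genes the annotated junction lost at least as many points as the unannotated one gained.

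Further down the ranking, the gains came from genes of several kinds. CBARP, a regulator of voltage-gated calcium channels, gained 55.0 points at an acceptor 197 nt upstream of the annotated one in the authors' deposited table. EPB41L4A, of the band 4.1 family of membrane skeleton proteins, gained 52.0 points in that table (adjusted p = 8.85e-07), and WSCD2 gained 46.4 (adjusted p = 3.54e-06). HDGFRP2, now named HDGFL2, encodes a chromatin-associated protein and gained 37.7 points at an intron of 179 nt in the authors' deposited table. PXDN, a peroxidase of the extracellular matrix, gained 36.5 points, CORO7, a coronin, 33.5, and SNX2, a sorting nexin of endosomes, 33.2 in the deposited table. SYCE1L and POLR2J4, at 42.8 and 34.9 points in the same table, reached acceptors downstream of the annotated one, 76702 and 345 nt away.

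**Figure D2:**
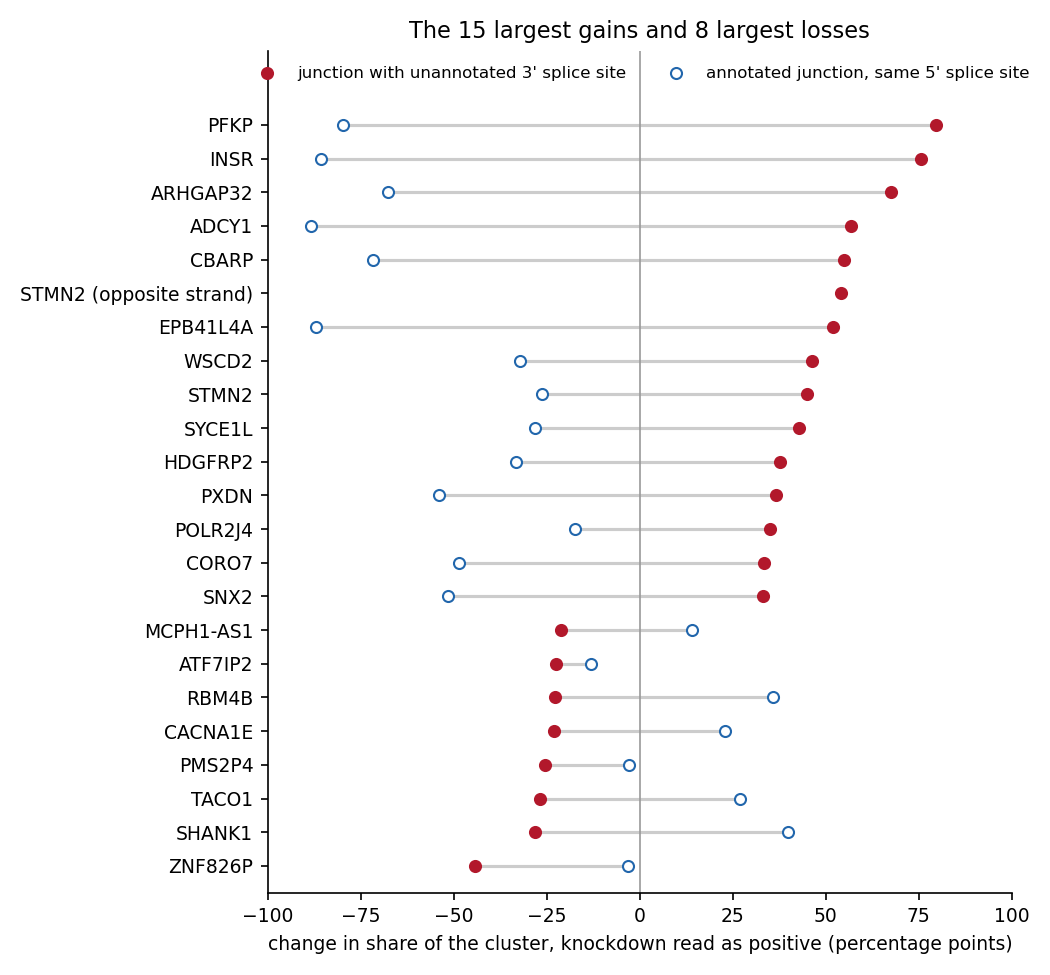
Change in share of the cluster, in percentage points, for the 15 largest gains and 8 largest losses among junctions with an unannotated 3' splice site (filled red), and for the nearest annotated junction from the same 5' splice site (open blue), from the authors' deposited table. The red points run from 79.7 for PFKP to -44.4 for ZNF826P, and in every one of the 14 gains with an annotated partner that partner is below 0.

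STMN2, the gene of stathmin-2, a neuronal protein that binds tubulin and acts in axon growth, was listed in 2 clusters. The junction from 79611214 to 79616822 on chromosome 8 gained 44.9 points in the plus-strand cluster of the authors' deposited table (adjusted p = 3.01e-11). The same coordinates gained 54.2 points in a minus-strand cluster of 2 introns (adjusted p = 0.000302), which is the only repeated junction of the group. The gene lies on the plus strand, and counted once the group holds 135 large gains. UNC13A, which encodes a protein that primes synaptic vesicles for release, gained 21.8 points from 17642541 to 17642845 on the minus strand of chromosome 19 in the authors' deposited table (adjusted p = 0.00105). Its acceptor is 985 nt upstream of the annotated one, and the cluster holds these 2 introns only.

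Losses were smaller and fewer. ZNF826P, a zinc finger pseudogene, had the largest, at -44.4 points in the authors' deposited table (adjusted p = 2.22e-07). SHANK1, a scaffold of the postsynaptic density, came next with -28.1 points at an intron of 541 nt, while its annotated junction gained 39.9 points in that table (adjusted p = 4.97e-06). TACO1, which acts in mitochondrial translation, changed by -26.9 points at an acceptor 3 nt past the annotated one in the authors' deposited table. The calcium channel gene CACNA1E changed by -23.0 points (adjusted p = 0.0299) and the RNA-binding protein gene RBM4B by -22.9 (adjusted p = 0.00118) in the deposited table. PMS2P4 at -25.4, ATF7IP2 at -22.6 and MCPH1-AS1 at -21.2 points complete the 8 largest losses of the deposited table. A loss means that a junction to an acceptor outside the annotation was already used in control neurons and took a smaller share after knockdown. The same acceptor can change otherwise by another junction. In ZNF826P, junctions with both sites unannotated that reach the acceptor of the largest loss changed by 23.4 and -2.3 points in the deposited table.

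Large changes were mostly exchanges with the annotated junction of the same donor. Of 135 large gains with such a partner, the partner lost share in 130 (96.3%) and lost at least 10 points in 120 (88.9%). Of 70 large losses with a partner, it gained in 62 (88.6%). Over all 2610 junctions with a partner, it moved the other way in 1651 (63.3%). Shares of 1 cluster sum to 0, so an opposite move is partly built into the measure, and in clusters of 2 introns it is certain. Such clusters held 36 of the 136 large gains, 23 of the 71 large losses and 228 of all 2633.

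Some donors had junctions to unannotated acceptors that changed in opposite directions. In 8 clusters, members changed by at least 10 points in both directions, and in 7 of these a single donor did so. In ZNF826P the junction that lost 44.4 points ends 21 nt upstream of the annotated site. Another, ending 932 nt upstream, gained 31.2 points in the authors' deposited table. SCUBE3, a secreted signalling protein gene chosen after its values were seen, changed by -19.5, 11.5 and 11 points at 3 acceptors of the same donor in that table (adjusted p = 1.43e-05). In SERGEF, junctions from a donor whose annotated junction changed by -51.2 points changed by 10.1, 8.2, 6.5 and -15.9 in the authors' deposited table. The acceptor of the -15.9 junction was also reached by a junction with both sites unannotated, which gained 19.9 points in that table. Over all clusters, 602 held 2 or more members and 305 of these (50.7%) had members in both directions. A donor served 2 or more members in 510 of 1897 cases, and an unannotated acceptor was reached from 2 or more donors in 146 of 2478. GRB10, a growth factor receptor adaptor gene, and RIMS2, an active zone gene, had the most members in a cluster, 9 each. Their changes ran from -1.7 to 0.7 points in GRB10 and from -1.9 to 3.1 points in RIMS2, as given in the authors' deposited table.

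Introns ending at an unannotated acceptor spanned a wide range of lengths. The median was 2972 nt, with quartiles of 893 and 11285 nt, against a median of 3290 nt for annotated introns in the table. The annotated partner from the same donor had a median of 5537.5 nt, since most unannotated acceptors lay inside the partner intron. The shortest introns were those of MRPS34, a mitochondrial ribosomal protein gene, at 56 nt, USF2, a transcription factor gene, at 64 nt and LOC100288778 at 65 nt. The longest were those of ANK2, an ankyrin gene, at 246565 nt, NRIP1 at 207036 nt and ST6GALNAC5 at 199341 nt. Changes of these 6 junctions in the authors' deposited table were -0.2, -0.9, -8.3, -0.3, 0.6 and -1.0 points in the order named. Large gains had a median length of 2753.5 nt and large losses of 3694 nt.

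The position of the new acceptor differed between gains and losses. Of the 2610 junctions with a partner, 1810 (69.3%) had their acceptor upstream of the nearest annotated one, inside the annotated intron, and 800 (30.7%) downstream. Upstream acceptors made up 108 of 135 large gains (80.0%) and 43 of 70 large losses (61.4%). The median distance was 2114.5 nt over all, 2530 nt in large gains and 2426.5 nt in large losses. No test was made, as junctions of a donor are not independent. Acceptors 13 to 100 nt upstream were positive in 83 of 122 cases (68.0%). Of the 122, 1 (0.82%) lost at least 10 points and 9 (7.38%) gained as much. CREBBP, a histone acetyltransferase gene, is one of these, with a gain of 23.6 points at an acceptor 30 nt upstream in the authors' deposited table (adjusted p = 0.0391). Acceptors 13 to 100 nt downstream, which trim the known exon, were positive in 74 of 184 cases (40.2%), with 6 large gains (3.26%) and 9 large losses (4.89%).

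**Figure D3:**
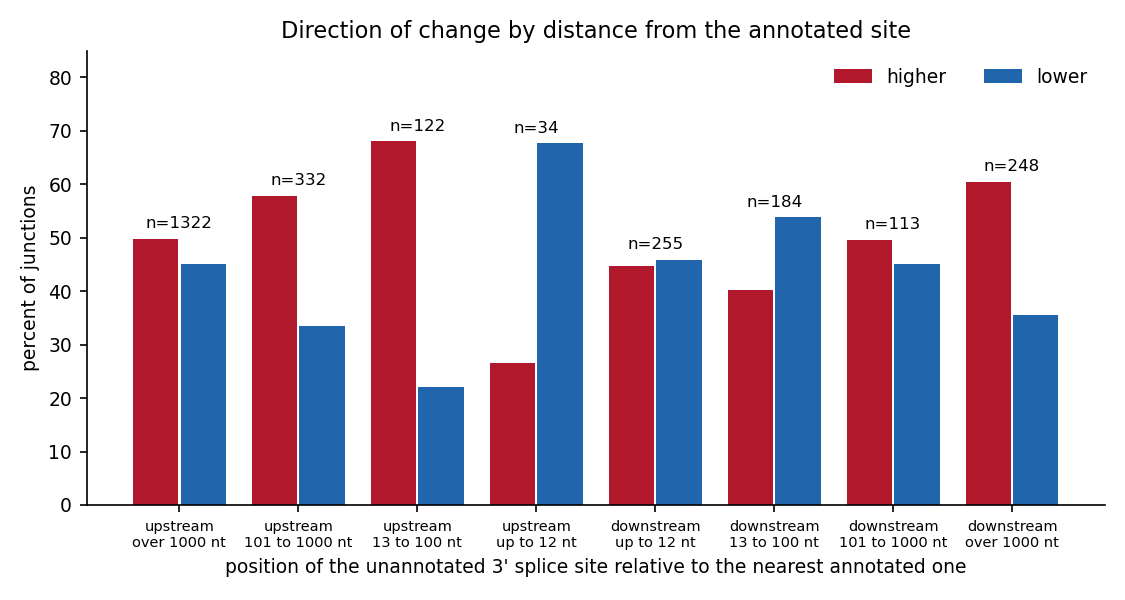
Percent of junctions with a positive (red) or negative (blue) change in the authors' deposited table, by the position of the unannotated 3' splice site relative to the nearest annotated one from the same 5' splice site, with n per bin. Positive changes are most frequent 13 to 100 nt upstream (68.0%) and least frequent up to 12 nt upstream (26.5%).

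A separate group of acceptors sat within a few nucleotides of the annotated one. Such tandem acceptors, in which neighbouring AGs compete for the same splicing event, numbered 289, with 255 up to 12 nt downstream and 34 up to 12 nt upstream. The most frequent offset was 3 nt downstream with 75 junctions, followed by 4 nt with 53, 5 nt with 35 and 2 nt with 26. Upstream, 22 of the 34 lay at 3 nt. Offsets that are a multiple of 3, which keep the reading frame, made up 114 of the 255 downstream (44.7%) and 27 of the 34 upstream (79.4%). Beyond 1000 nt the same share was 33.1% upstream and 32.3% downstream.

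Tandem acceptors rarely gained much. Of the 255 downstream, 1 (0.392%) gained and 6 (2.35%) lost at least 10 points, against 5.17% and 2.70% of the whole group. By sign, 114 of the 255 were positive and 117 negative. Of the 34 upstream, 9 were positive and 23 negative, with none past 10 points. TACO1 had the largest change of these in the authors' deposited table, with -26.9 points and a matching gain of 26.9 at the annotated acceptor 3 nt away (adjusted p = 0.000306). Others were named after their values were seen. CUX2, a transcription factor gene of upper cortical layers, changed by -10.3 points at 3 nt and PHC3, a polycomb gene, by -12.2 at 2 nt in the authors' deposited table. CSNK1G2, a casein kinase gene, held the only large gain, 10.4 points at 5 nt in that table (adjusted p = 0.00524). INSR had a second junction of this kind, in another cluster, which changed by -6.2 points in the authors' deposited table.

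**Figure D4:**
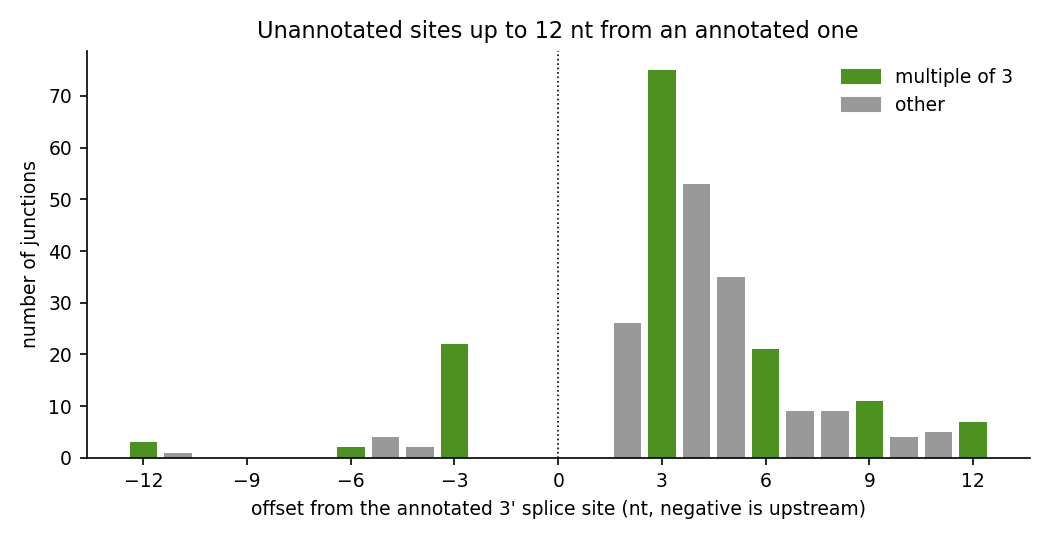
Number of junctions whose unannotated 3' splice site lies up to 12 nt from the nearest annotated one of the same 5' splice site, by offset in nt (negative is upstream); green bars are multiples of 3. The tallest bar is 3 nt downstream with 75 junctions, and 22 lie 3 nt upstream.

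Many of the acceptors were the entry edge of an exon whose exit edge is unannotated as well. An exon was drawn wherever a junction of the same cluster led from an unannotated 5' splice site, up to 500 nt past the acceptor, to a known 3' splice site. Junctions with both sites unannotated were not counted as exits, and with them the 1093 junctions below become 1174. This held for 1093 junctions (41.5%) in 719 host symbols and gave 1124 distinct exons with a median length of 104 nt. Of these, 52 were under 30 nt and 140 over 200 nt. Both edges gained in 492 exons and both lost in 286, with the rest mixed or at 0. Both gained at least 10 points in 32 exons of 28 genes, and both lost as much in 2. The entry junction was part of such an exon in 60 of 136 large gains (44.1%) and 14 of 71 large losses (19.7%). Exon lengths were a multiple of 3 in 471 of 1124 (41.9%), in 191 of the 492 with both edges gaining (38.8%) and in 127 of the 286 with both losing (44.4%). Among the 32 it was 12 (37.5%), so the length of the other 20 would shift the reading frame where they lie in coding sequence, which was not checked here.

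The exons with the largest gain at both edges were ordered by the smaller of the 2 gains. In EPB41L4A an exon of 75 nt, from 112267210 to 112267284 on chromosome 5, gained 52.0 points at its entry and 35.1 at its exit in the authors' deposited table. ADCY1 had an exon of 79 nt, from 45625299 to 45625377 on chromosome 7, with 56.9 and 31.4 points in that table. SLC24A3, a sodium, potassium and calcium exchanger gene, had 2 entries 3 nt apart that led to exons of 51 and 48 nt with a shared exit. The entries gained 24.9 and 30.7 points and the exit 22.4 points in the authors' deposited table (adjusted p = 6.49e-11), a tandem acceptor at a cryptic exon. ACTL6B, a subunit of the neuronal BAF chromatin remodelling complex, gained 20.9 and 50.7 points at an exon of 69 nt in the deposited table. SLMO1, now named PRELID3A, gained 20.4 and 62.7 points at an exon of 115 nt in the same table. CAMK2B, a calcium and calmodulin-dependent kinase gene of synapses, had entries that gained 19.5 and 16.4 points and shared an exit that gained 29.8 in the authors' deposited table. These give exons of 121 and 25 nt. CACNA1C, an L-type calcium channel gene, gained 32.8 and 18.9 points at an exon of 75 nt in the deposited table.

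The edges of an exon often differed in size. Of the 32 exons with large gains at both edges, the entry gained more in 12 and the exit in 20. INSR gained 75.6 points at the entry of an exon of 112 nt and 10 at its exit in the authors' deposited table. HDGFRP2 gained 37.7 points at the entry of an exon of 138 nt, and its exit changed by -2.0 in that table. CBARP gained 55.0 points at an entry 31 nt before an exit that gained 8.5 in the authors' deposited table. KALRN, a guanine nucleotide exchange factor for small GTPases, had the reverse pattern at an exon of 163 nt, with 8.7 points at the entry and 31.7 at the exit in the authors' deposited table. A second KALRN entry in the same cluster, at 3.5 points in that table, used the same exit. Among losses, SHANK1 had an exon of 24 nt with -28.1 points at the entry and -11.8 at the exit in the authors' deposited table. DCLK2, a doublecortin-like kinase gene, had one of 13 nt with -14.9 and -23.4 points in that table, and was named as the other of the 2 exons after its values were seen.

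**Figure D5:**
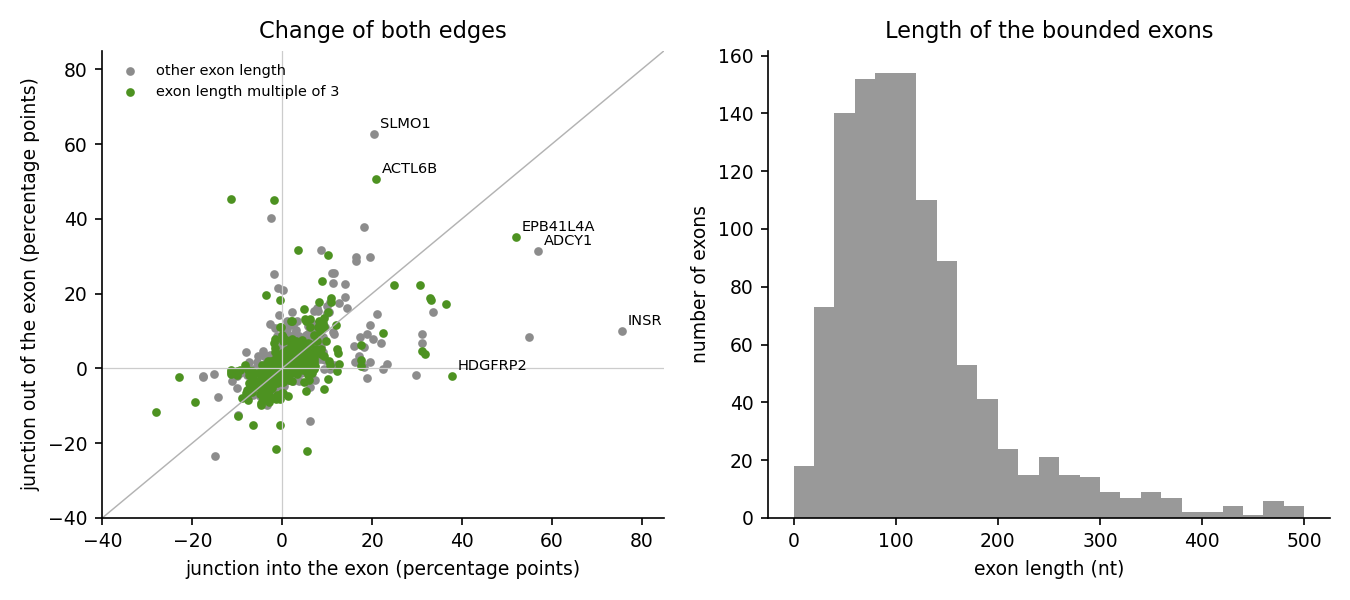
Left: change of the junction into each bounded exon (x) against the junction out of it (y), in percentage points from the authors' deposited table, with a line of equality; green points are exons whose length is a multiple of 3. Right: length of the bounded exons in nt. INSR and HDGFRP2 lie far below the line with exits at 10 and -2.0 points, and SLMO1 and ACTL6B above it; the median length is 104 nt.

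Large gains without a listed exit had several layouts. Of the 136, 33 (24.3%) lay over 500 nt upstream of the annotated acceptor with no such exit up to 500 nt past them in the cluster. This layout made up 20.8% of all 2633 junctions. In 2 of the 33, SERGEF at 10.1 points and FAM81A at 16.4 in the authors' deposited table, a junction with both sites unannotated did start there. FAM81A was named after its values were seen. The 33 also include PFKP, ARHGAP32, WSCD2, STMN2 and UNC13A. A further 15 (11%) lay up to 500 nt upstream, where the new acceptor can extend the known exon, and 9 (6.62%) up to 500 nt downstream. Over all junctions these shares were 8.74% and 19.3%. Another 18 (13.2%) lay over 500 nt downstream of the nearest annotated acceptor, against 9.0% of all junctions. Of the 71 large losses, 28 (39.4%) lay over 500 nt upstream without an exit, against 20.8% of all junctions. Up to 500 nt downstream lay 18 (25.4%), against 19.3% of all. A junction with both sites unannotated followed 0 of these 28. An exit junction below the authors' limits for listing, which are not stated in the sources used here, would not appear.

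Some acceptors lay outside the host gene. Placed on the RefSeq gene of the same symbol, 2475 acceptors (94.0%) were inside, 114 (4.33%) past the end, 28 before the start and 16 had no gene span to compare. Of the 114 past the end, 84 were positive (73.7%) and 25 negative, and 12 gained and 3 lost at least 10 points. Acceptors past the end were 4.33% of all junctions described here, 8.82% of the 136 large gains and 4.23% of the 71 large losses. On another base, 5.17% of the whole group had a large gain and 2.70% a large loss. SYCE1L, a synaptonemal complex related gene, gained 42.8 points from a donor on chromosome 16 at 77212369 to an acceptor at 77289276 in the authors' deposited table (adjusted p = 0.0139). The sequence around that donor, with the intron's GT in capitals, comes from a RefSeq window. It shows that the start of this long jump has the usual letters, while its acceptor lies in no window.
SYCE1L donor, chr16:77212360-77212381, plus strand: tgaatgacggGTgagaggggaa
BET1L, a SNARE gene of the Golgi, gained 26.5 points at an acceptor 25065 nt past the annotated one in the authors' deposited table and was chosen after its values were seen. In 27 of the 114 the acceptor fell inside another RefSeq gene on the same strand.

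The list of genes reported elsewhere as TDP-43 splicing targets was drawn up with earlier results of these data known, so its counts are no independent support. Of 46, 42 were in the splicing table and 36 hosted 74 of the junctions, of which 49 were positive and 18 negative. The median was 3.3 points against 0.1 over the whole group. Large gains were found in 19 of the 36 hosts, and in 129 of all 1372 hosts. Over the whole table, 1372 of 2411 symbols hosted such a junction. Beside those above they were SETD5, a chromatin gene, at 31.2 points, GPSM2, which orients the spindle, at 18.6, and UNC13B, a vesicle priming gene, at 18.3 in the authors' deposited table. CELF5 and ELAVL3, RNA-binding protein genes of neurons, gained 16.4 and 11.3 points in that table. MNAT1, an assembly factor of the kinase that starts transcription, gained 12.6 and DNM1, the dynamin of synaptic vesicle retrieval, 10.7 points in the authors' deposited table. SETD5 also held the only large loss on the list, at -11.5 points in another cluster of the deposited table (adjusted p = 0.0163).

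The rest of that list changed by less than 10 points at every such junction. PRUNE2 gained 9.8, AGRN, the agrin gene, 8.9, KALRN 8.7, IGLON5 8.2 and ATG4B, an autophagy protease gene, 7.9 points in the authors' deposited table. CEP290, a cilium gene, gained 7.7, SYT7, a synaptotagmin gene, 6.9, ADCY8, an adenylyl cyclase gene, 5.9 and RANBP1, a nuclear transport factor gene, 3.1 points in the deposited table. At the exit edge ATG4B gained 11.2, SYT7 12, AGRN 23.3 and RANBP1 10.3 points in the authors' deposited table, more than at the entry in each of these genes. ATXN1 changed by -8.4, TRRAP by -7.9, MYO18A by -3.4 and CYFIP2 by -2.2 points in the authors' deposited table. DNAJC12 at 0.6, RSF1 at 0.0 and LRP8 at 0.0 points were near 0 in that table. Of 38 ALS and FTD genes, 8 had listed introns and 3 hosted 4 of the junctions. These were STMN2 in both of its clusters, UNC13A and MATR3, an RNA-binding protein gene, at 1.5 points in the authors' deposited table.

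Synaptic and channel genes showed both directions. For this and the following lists, the whole group had 51.2% positive and 42.7% negative changes, with 5.17% large gains and 2.70% large losses. Among 36 genes of vesicle release, 20 had listed introns and 16 hosted 51 junctions. Of these junctions 28 were positive and 17 negative, with a median of 0.2 points. Large gains were in UNC13A, UNC13B, DNM1 and CADPS, a factor for dense core vesicles, at 10.1 points, and a large loss in ERC2, an active zone gene, at -11.1 in the authors' deposited table. Of 30 postsynaptic genes, 16 had listed introns and 9 hosted 16 junctions, 11 positive and 4 negative. CAMK2B gained, while SHANK1 and SHANK3, at -12.8 points in the authors' deposited table, lost share. Of 31 channel and transporter genes, 15 had listed introns and 10 hosted 14 junctions. Of these junctions 6 were positive and 8 negative, with a median of -0.55 points. CACNA1C and SLC24A3 had large gains, CACNA1E the only large loss, and CACNA1B a change of -6.0 points at an acceptor 5 nt from the annotated one in the authors' deposited table.

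Cytoskeleton and regulatory genes were mixed as well. Of 49 cytoskeleton and motor genes, 31 had listed introns and 22 hosted 63 junctions. Of these junctions 27 were positive and 31 negative, with a median of 0.0 and 0 large losses. Beside STMN2, EPB41L4A and GPSM2, KIF1B, a kinesin gene, gained 12 points and ANK3, the gene of ankyrin-G, 10.8 in the authors' deposited table. CLASP1, a microtubule plus-end protein gene, changed by 10.6 and -8.3 points at a single acceptor reached from 2 donors in that table (adjusted p = 8.46e-12). The annotated junction from the donor of the gain changed by 11.7 points in the authors' deposited table. Of 40 regulators of small GTPases, 21 had listed introns and 13 hosted 16 junctions, 11 positive and 5 negative. ARHGAP32 and RAPGEF6, at 17.4 points in the authors' deposited table, were past 10 points. PREX1 changed by -7.3 points in that table. Of 61 splicing factors and RNA-binding proteins, 28 had listed introns and 16 hosted 37 junctions, 15 positive and 18 negative. ELAVL4, a neuronal RNA-binding protein gene, had the largest change of these at -16.9 points in the authors' deposited table (adjusted p = 0.000854), opposite in sign to its relative ELAVL3. CELF5 came next, followed by SFPQ, a nuclear RNA-binding protein gene, which gained 14.4 points at an acceptor 6557 nt past the annotated one in the authors' deposited table (adjusted p = 2.5e-06).

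In the remaining lists the counts were as follows. Of 51 chromatin and transcription genes, 29 had listed introns and 22 hosted 51 junctions. Of these junctions 27 were positive and 20 negative, with a median of 0.1. Their leading members were HDGFRP2, SETD5, CREBBP and ACTL6B, and AUTS2, a neurodevelopmental gene named after its values were seen, changed by -18.5 points in the authors' deposited table. Of 44 autophagy and lysosome genes, 10 had listed introns and 5 hosted 14 junctions, 12 positive and 1 negative. Of the 14, 8 lie in a single cluster of WDFY3 with changes of 0.0 to 1.3 points, so they are not independent. VPS13A, a lipid transfer protein gene, gained 19.2 points in the authors' deposited table (adjusted p = 0.0436). WDFY3, a selective autophagy adaptor gene, gained 1.3 at most over 8 members, and TSC1, a brake on mTOR signalling, had a largest change of 0.8 points in the authors' deposited table. Of 40 DNA repair and cell cycle genes, 8 had listed introns and 2 hosted members. These were ERCC8, of transcription-coupled repair, at -20.9 points and MSH3, of mismatch repair, at 7.0 in the authors' deposited table. Of 38 metabolic genes, 16 had listed introns and 11 hosted 20 junctions, 9 positive and 10 negative. Beside PFKP and INSR, PCCA, a propionyl-CoA carboxylase gene, gained 2.6 points in the authors' deposited table.

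Few of the acceptors lay up to 1000 nt before a cryptic polyadenylation site. The authors listed 457 sites from 3' end-seq as cryptic, with their usage in control and knockdown neurons. Only 5 junctions ended up to 1000 nt upstream of one on the same strand. STMN2 is the clearest, with 226 nt between its acceptor and a site used at 0.0207% in control and 39.0% in knockdown neurons in the authors' deposited table of sites. In SERGEF, a gene with a large fall at its annotated junction, the site lay 192 nt past the acceptor and went from 2.45% to 16.5% in the authors' deposited table. Its junction gained 10.1 points in the deposited table of introns (adjusted p = 2.55e-11). In ASPHD1 2 junctions with changes of 1.1 and -0.1 points ended 132 nt before a site that went from 2.19% to 17.5% in the authors' deposited tables. The junction of GOLGA3 changed by 0.2 points and ended 816 nt before a site that the authors' deposited table assigns to CHFR. Thus 2 of the 5 had a large change. With sites up to 5000 nt away there were 13 junctions, and those added were named after their values were seen. LINC01278 gained 26.5, PPOX 23.7 and ARHGAP22 11.5 and 5.5 points in the authors' deposited table. Another SERGEF junction gained 8.2, while PTPRN2 changed by -1.1 and TBC1D9B by -0.5 and -0.3 points in that table. How often other listed introns end near such a site was not counted. The usage values are 1 per group with no error.

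The rising site of a polyadenylation pair lay up to 1000 nt past the acceptor in 11 junctions. SHANK3 at -12.8 points and 1 ASPHD1 junction at -0.1 points were negative in the authors' deposited table, and the others were positive. The ASPHD1 junctions share an acceptor and a site, as do those of CNPY3, so the 11 are not independent. Gains of ASPHD1, CNPY3, FAM45A and GS1-124K5.11, named after their values were seen, were only 1.1 to 3.0 points in that table. The share over all listed introns was not counted. Beside STMN2 and SERGEF the positive ones include PIGL, an enzyme gene of glycolipid anchor synthesis named after its values were seen. Its junction gained 7.3 points, and the gene was called shorter at -0.527 of the usage index in the authors' deposited tables. The 3' end-seq table called 222 of the 1363 matched host genes longer (16.3%) and 41 shorter (3.01%). Among hosts of large gains these were 23 (18%) and 6 (4.69%) of 128, and among hosts of large losses 16 (22.9%) and 6 (8.57%) of 70. Among all 2395 matched genes that the splicing data listed they were 354 (14.8%) and 65 (2.71%). Hosts of large losses had the highest shares, which rest on 16 and 6 genes. No test was made because it is not known which genes were testable in both assays.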

How the data were processed

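Neurons made from WA01 cells were measured by RNA-seq and by 3' end-seq, with 3 libraries for each treatment and assay. Per the submitters' processing notes, fastp, STAR, SAMtools, Salmon and DESeq2 were used with the hg38 build, without versions or roles. Leafcutter is named by the deposited files; the sources used here give neither its settings nor its annotation. All values are the authors' own comparisons. The change in intron share is a deposited score, rounded to 3 decimals and shown here as percentage points. Cluster size is a deposited count of introns, and the cluster p-value is the authors' adjusted p. The change of polyadenylation usage index is a deposited score of unstated scale, and the usage of a site is deposited as a fraction, 1 per treatment, and appears here in percent. Only changed clusters are listed, at adjusted p up to 0.05, so the number tested and the depth are unknown. The 6 per-sample columns of the gene table were left out, because no label ties their numbers to samples.

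Member rows were those of class cryptic_threeprime. Start and end are the exon bases that flank the intron, as checked by GT and AG letters in the RefSeq windows, so intron length is end minus start minus 1. Partners share the cluster and the 5' splice site, and exons join an acceptor to an unannotated donor up to 500 nt downstream whose junction ends at a known acceptor. The strand of a junction, and so its donor, acceptor and offset, is the strand in the name of its cluster. Gene spans and the gene strands compared with it come from RefSeq (GRCh38.p14). There, 71 host symbols matched through synonyms and 9 were unmatched. No test was run. The pairing functions were tested on simulated junctions. Python 3.11.15, pandas 2.3.3, numpy 2.4.6 and matplotlib 3.10.9 were used.

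Members and gene lists were chosen with earlier results of these data known. Genes were named by rule: hosts of the 15 largest gains and 8 largest losses, all hosts in the reported target and ALS lists, up to 4 hosts for each other list, the 8 exons with the largest gains, junctions near a cryptic site, the clusters with most members, and the 3 shortest and 3 longest introns. Exceptions are marked, and some hosts that the rule names are not reported here. Alternatives changed the p limit, the size limit, strand agreement, exon length, partner definition and distance to a site.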

Additional observations from a re-analysis of the deposited data

How the results depend on the processing

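No paired analysis was possible because the tables hold no values per library, and for the same reason no replicate could be left out. Counts of higher and lower junctions were 1347 and 1124, and became 777 and 610 at a cluster adjusted p up to 0.01 and 416 and 342 at up to 0.001, where fewer clusters remain. With a limit of 5 points, 310 gained and 183 lost, and with 20 points 45 gained and 9 lost, in place of 136 and 71 at 10 points. Junctions at the edge of an exon numbered 1093, and 472 when both edges had to gain. Junctions before a cryptic polyadenylation site went from 5 to 13 when the distance was widened to 5000 nt. The other alternatives kept counts within 1.5 times: distinct junctions, strand agreement with RefSeq (1096 higher and 907 lower), exons up to 300 nt (1060) or 1000 nt (1133), any overlapping annotated junction (2615), sites up to 500 nt (4) and, both chosen after seeing the data, exits with both sites unannotated (1174) and leaving out the STMN2 cluster on the opposite strand (135 gains). For strand agreement, a RefSeq host strand was at hand for 2138 of the 2633 junctions and equalled the cluster strand in 2137. Nearly all junctions left out there thus lacked a host strand to compare. Higher junctions outnumbered lower ones in each alternative that counted both.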
